A study of Mus musculus with 8 samples.

Results

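Regulators of inflammatory mRNA decay were described in neutrophils taken from mouse lungs with and without pneumonia. The set holds 10 genes, chosen by symbol: Zfp36, Zfp36l1, Zfp36l2, Zc3h12a, Zc3h12c, N4bp1, Rc3h1, Rc3h2, Elavl1 and Khsrp. Each of the 10 genes matched exactly 1 row of the 24625 rows of the table, by its RefSeq transcript. Wild type (WT) mice, aged 6-12 weeks per the labels (the methods give a narrower range of ages) and from colonies founded with female C57BL/6J animals per the methods, received either a suspension of Streptococcus pneumoniae (SP) or phosphate-buffered saline (PBS) into the left lung through the trachea, at 2.3 µl per g of body weight. Lungs were digested with enzymes 24 h later, and cells carrying Ly6G, a surface protein of mouse neutrophils, were pulled out with antibody and magnetic beads. There were 4 samples in each group and 1 array per sample. The study describes each sample as coming from a mouse given PBS or SP, so p-values rest on the spread between mice. Per the study's methods, the purity of the cells was evaluated in the samples with pneumonia, and no such evaluation is described for those given PBS.

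Messenger RNAs of cytokines and chemokines often carry AU-rich stretches or small stem-loops in their tails, and proteins that read these elements set how long the message lasts. Zfp36 (tristetraprolin) and its relatives Zfp36l1 and Zfp36l2 bind AU-rich elements through a pair of zinc fingers and bring in the CCR4-NOT complex, which shortens the poly(A) tail. Zc3h12a (regnase 1, also called MCPIP1) and Zc3h12c are endonucleases that cut stem-loop messages such as that of Il6, N4bp1 carries a related nuclease domain, and Rc3h1 and Rc3h2 (roquin 1 and roquin 2) recognise similar stem-loops and recruit deadenylases. Khsrp (KSRP) promotes decay of AU-rich messages, whereas Elavl1 (HuR) binds the same elements and protects them.

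The windows just before their transcription starts are given here for the regulators with the largest rises and, for contrast, for Zfp36. RefSeq sequences of the mouse assembly GRCm38.p6 were matched for 9 of the 10 genes, with 2 starts for Zc3h12c. All windows below are on the minus strand, are written 5′ to 3′ and cover the 250 bases before the start. Capitals mark a match to the NF-κB consensus in Zc3h12c and to the CArG box, the site of serum response factor, in Zfp36.
Zc3h12c, first start, chr9:52168407-52168656: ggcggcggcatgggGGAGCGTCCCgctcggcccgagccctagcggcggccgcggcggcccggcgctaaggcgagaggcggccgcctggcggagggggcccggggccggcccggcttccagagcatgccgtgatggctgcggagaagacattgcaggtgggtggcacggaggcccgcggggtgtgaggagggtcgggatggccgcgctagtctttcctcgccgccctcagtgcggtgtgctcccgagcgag
Zc3h12c, second start, chr9:52149364-52149613: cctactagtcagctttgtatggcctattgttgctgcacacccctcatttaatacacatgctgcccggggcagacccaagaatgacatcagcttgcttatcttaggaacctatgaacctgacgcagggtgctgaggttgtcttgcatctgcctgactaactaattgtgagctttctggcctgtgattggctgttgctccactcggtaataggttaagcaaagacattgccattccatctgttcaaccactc
Zc3h12a, chr4:125127882-125128131: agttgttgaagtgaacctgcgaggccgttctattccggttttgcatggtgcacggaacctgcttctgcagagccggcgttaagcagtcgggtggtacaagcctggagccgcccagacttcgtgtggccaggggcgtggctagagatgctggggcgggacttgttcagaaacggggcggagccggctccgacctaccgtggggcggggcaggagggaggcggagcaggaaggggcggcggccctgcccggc
N4bp1, chr8:86885259-86885508: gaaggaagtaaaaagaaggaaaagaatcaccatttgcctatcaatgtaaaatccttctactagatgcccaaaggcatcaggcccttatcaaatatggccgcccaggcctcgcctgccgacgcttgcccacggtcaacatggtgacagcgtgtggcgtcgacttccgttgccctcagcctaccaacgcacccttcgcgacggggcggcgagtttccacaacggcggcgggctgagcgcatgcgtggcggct
Zfp36, chr7:28379229-28379478: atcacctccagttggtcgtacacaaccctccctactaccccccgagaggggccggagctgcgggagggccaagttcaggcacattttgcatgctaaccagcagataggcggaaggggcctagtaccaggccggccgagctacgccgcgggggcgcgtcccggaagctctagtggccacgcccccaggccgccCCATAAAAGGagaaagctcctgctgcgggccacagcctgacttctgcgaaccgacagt

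Searched on both strands, the NF-κB consensus was found in the window of 1 gene of the set, Zc3h12c. It read GGAGCGTCCC and began 236 bases before the first of the 2 matched starts. The outer bounds of the Zc3h12c gene are chr9:52109569-52168730. Both of its windows, and with them this match, therefore lie inside the gene, downstream of its outermost 5′ end. The window of N4bp1 also runs across the outer 5′ end of its gene, at 86885296. Of all 32851 windows of the same length, 7.25% held it. The CArG box in Zfp36, CCATAAAAGG, began 58 bases before the start, and 1.47% of all windows held one. The AP-1 motif TGANTCA was found in Rc3h1, as TGACTCA, and in Zfp36l1, as TGATTCA, and in 6.75% of all windows. None of these 3 motifs was found in the windows of Zc3h12a and N4bp1 shown above, or in the second window of Zc3h12c. A match or its absence in a window describes these letters only, and binding was not measured.

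Expression was read as log2 intensity after robust multi-array averaging (RMA), and a difference of 1 log2 unit is a 2-fold change. The lowest value of any of the 10 genes on any array was 7.57, above 3 Y-linked genes, which lay between 4.33 and 4.90 on all arrays and served as a measure of background. Array medians were 6.06 to 6.20 in PBS and 5.78 to 5.91 in SP, an SP minus PBS mean of -0.281, while the median difference over all rows was 0.10. Differences of that size can change sign with the scaling of the arrays.

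During pneumonia, the nuclease and roquin genes of the set rose, and the genes for AU-rich element binders did not pass the test. Zc3h12c was 9.29-fold, Zc3h12a 6.56-fold and N4bp1 3.30-fold higher in lung neutrophils from mice given SP. The roquin genes Rc3h1 and Rc3h2 rose 1.43-fold and 1.40-fold. Zfp36, Zfp36l1, Zfp36l2, Elavl1 and Khsrp were not called. In limma's fit over all rows, 5 of the 10 genes passed an adjusted p of 0.05, all higher in SP, against 44.1% of all rows, 21.5% higher and 22.6% lower. At least 2-fold calls were made for 3 of the 10, all higher, against 17.6% of all rows, 6.37% higher and 11.3% lower. PBS and SP values did not overlap for 6 of the 10 genes, against 49.0% of all rows. The median difference of the 10 genes was 0.41, with 0.69 when arrays were centred and 0.22 after another quantile normalization.

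**Figure D1:**
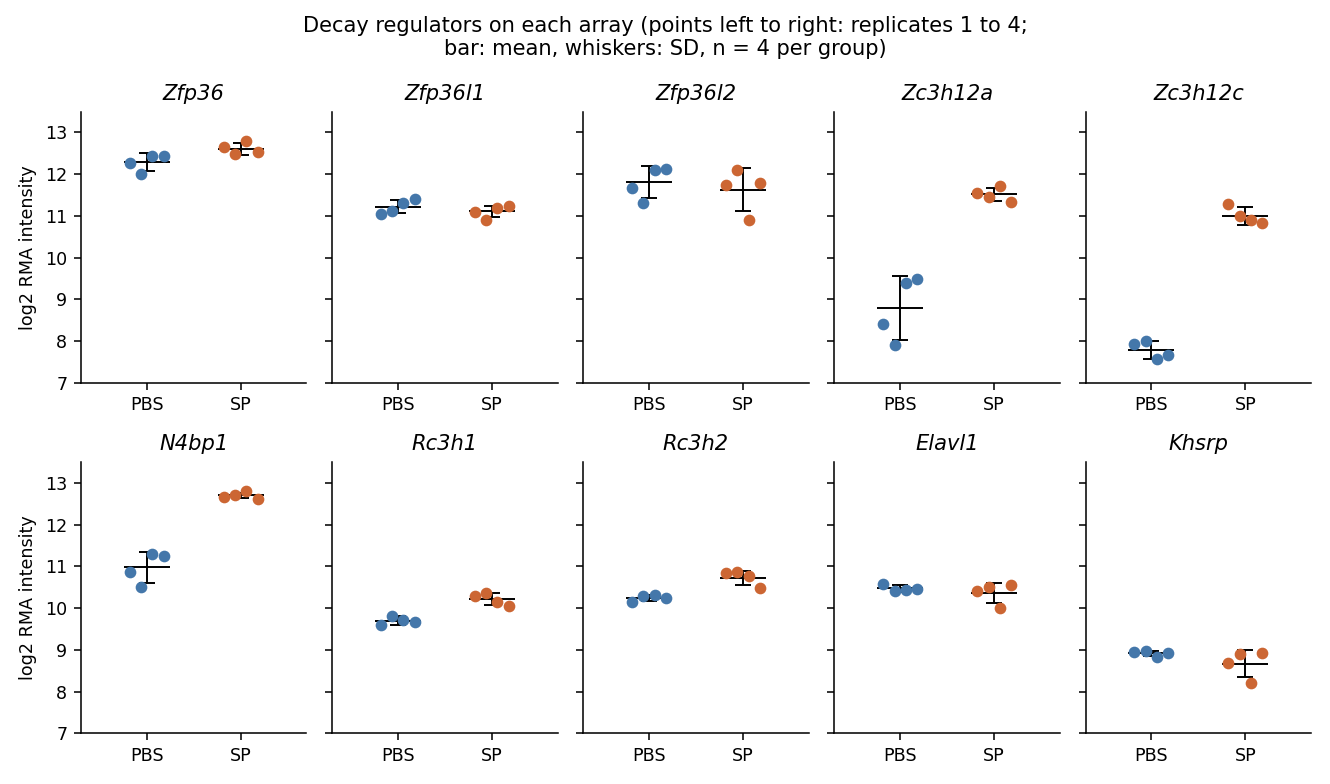
Log2 RMA intensity (y axis) of each of the 10 decay regulators on the 4 PBS arrays (blue) and the 4 SP arrays (orange), in 1 panel per gene. Points run from replicate 1 to replicate 4, the bar is the mean and whiskers are the SD. The groups are far apart for Zc3h12a, Zc3h12c and N4bp1, narrowly apart for Rc3h1, Rc3h2 and Zfp36, and overlap for the other 4 genes.

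Markers of several other lung cell types were measured on all arrays, and most of those called were lower in SP. The mean of 12 neutrophil markers lay between 12.18 and 12.69 on the PBS arrays and between 12.18 and 12.89 on the SP arrays. Of these 12 markers, 3 were called lower in SP and 1 higher. All 8 matched markers of ciliated epithelium were called lower in SP, with an array mean of 9.29 to 10.17 in PBS and 6.54 to 7.33 in SP. So were 7 of 9 endothelial markers (10.52 to 11.48 against 8.90 to 9.96), 7 of 8 alveolar type 2 markers (12.16 to 12.69 against 10.30 to 11.77) and all 6 B cell markers (7.71 to 8.63 against 5.83 to 6.97). Of 7 matched monocyte and macrophage markers 2 were called, both higher, with array means of 7.87 to 8.73 in PBS and 7.76 to 9.27 in SP. Alveolar macrophage markers, 7 matched, gave 4 called lower and 1 higher (8.90 to 9.58 against 7.84 to 8.49). Eosinophil markers, 4 matched, gave 2 called, both higher (4.72 to 5.77 against 5.74 to 6.17). Among 6 T cell markers 1 was called higher and 1 lower, and none of 5 NK cell markers was called. The part of these cells in the differences of the decay regulators was not tested. In such bulk samples, a change in the number of cells of a type and a change in RNA per cell cannot be told apart.

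Zc3h12c, a relative of regnase 1, showed the largest difference of the set. Its values were 7.92, 8.00, 7.57 and 7.66 on PBS arrays 1 to 4 and 11.29, 11.00, 10.90 and 10.82 on SP arrays 1 to 4. The groups were separated by more than 2 log2 units, and each group was tight. The mean rose from 7.79 ± 0.21 to 11.00 ± 0.21 (SD, n = 4 each), a difference of 3.22 log2 units (standard error 0.14, adjusted p = 3.64e-06 by limma). Only 144 of the 24625 rows showed a larger rise.

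Zc3h12a encodes regnase 1, which cuts the messages of Il6 and other inflammatory genes and is itself degraded when Toll-like or interleukin 1 receptors signal. Its PBS values were 8.41, 7.91, 9.40 and 9.48 and its SP values 11.56, 11.45, 11.71 and 11.33. The 4 SP arrays agreed closely, whereas PBS arrays 1 and 2 lay well below PBS arrays 3 and 4. Group means were 8.80 ± 0.77 and 11.52 ± 0.16 (SD, n = 4 each), apart by 2.71 (standard error 0.34, adjusted p = 0.000389 by limma). The difference was between 2.35 and 3.0 under all 17 alternative settings and was called under each. Whether Zc3h12c rose more than Zc3h12a was compared with the log2 ratio of the pair on each array, with means of -1.01 ± 0.97 for PBS and -0.51 ± 0.23 for SP (SD, n = 4 each). That change of 0.50 did not exceed the spread (exact permutation p = 0.371, two-sided, adjusted 0.495 over 4 such contrasts).

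N4bp1 restrains cytokine production and is cut by caspase 8 and by the protease Malt1. It lay at 10.86, 10.51, 11.29 and 11.24 in PBS and at 12.67, 12.71, 12.80 and 12.62 in SP. As for Zc3h12a, PBS arrays 1 and 2 were the lower pair and the SP arrays were nearly alike. The mean rose from 10.98 ± 0.37 to 12.70 ± 0.07 (SD, n = 4 each), by 1.72 log2 units (standard error 0.17, adjusted p = 0.000119 by limma).

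**Figure D2:**
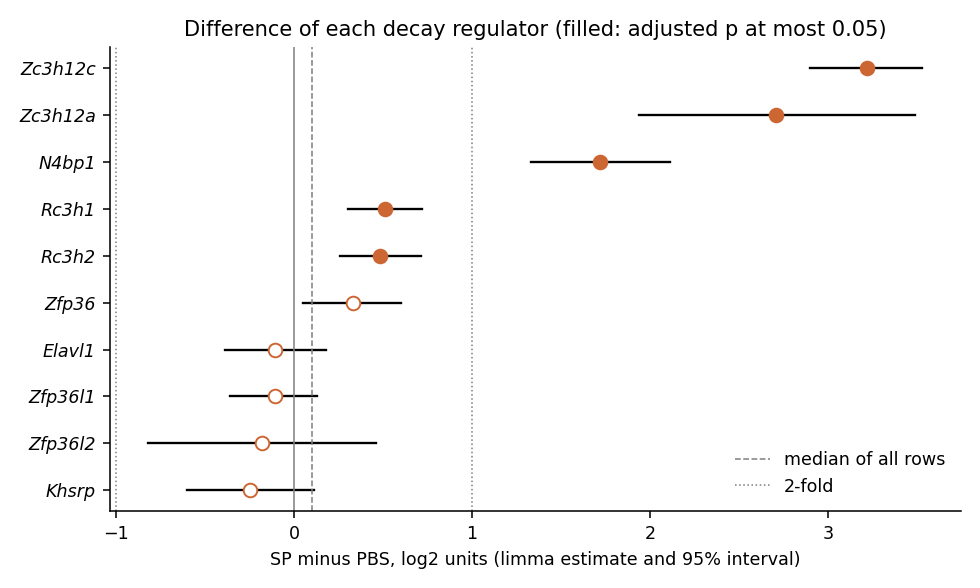
Difference between SP and PBS in log2 units (x axis) for each decay regulator, as limma's estimate with its 95% interval. Filled points passed an adjusted p of 0.05, the dashed line is the median of all rows (0.10) and dotted lines mark a 2-fold change. Zc3h12c, Zc3h12a and N4bp1 lie past the 2-fold line with their whole intervals, and Rc3h1 and Rc3h2 lie between 0 and 1.

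The roquin genes moved by a smaller and nearly equal amount. Rc3h1 values were 9.59, 9.82, 9.72 and 9.67 in PBS and 10.28, 10.36, 10.15 and 10.06 in SP, and Rc3h2 values were 10.15, 10.28, 10.32 and 10.25 in PBS and 10.83, 10.86, 10.77 and 10.48 in SP. In both genes every SP array lay above every PBS array, and SP array 4 was the lowest of its group. The differences were 0.51 (standard error 0.09, adjusted p = 0.00268 by limma) and 0.48 (0.10, 0.00505), below the 2-fold threshold. The log2 ratio of Rc3h1 to Rc3h2 was -0.55 ± 0.07 in PBS and -0.52 ± 0.09 in SP, with no detected change (0.03, exact permutation p = 0.657, adjusted 0.657).

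Zfp36, whose product destabilises Tnf mRNA among others, was already bright in PBS. The values were 12.27, 12.00, 12.44 and 12.44 in PBS and 12.66, 12.48, 12.79 and 12.53 in SP. The groups did not overlap, but the gap between PBS array 4 and SP array 2 was small. The difference of 0.33 (standard error 0.12, 95% interval 0.05 to 0.60) did not pass the adjustment over all rows (p = 0.0266, adjusted p = 0.0573 by limma), and an exact permutation test over arrays gave 0.0286, the smallest value that 70 arrangements allow. The call depended on the scaling, since with arrays centred on their medians the difference was 0.61 (adjusted p = 0.00719), and it was also called with the replicate number as a block (adjusted p = 0.0450). Adjusted p ranged from 0.00719 to 0.287 over the 17 alternatives.

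Neither relative of Zfp36 was called. Zfp36l1 lay between 11.05 and 11.40 in PBS and between 10.91 and 11.23 in SP, with a difference of -0.11 (95% interval -0.36 to 0.13, adjusted p = 0.389 by limma). Its sign turned with centred arrays (0.17), and it was called lower after another quantile normalization (-0.33, adjusted p = 0.0208). Zfp36l2 varied more, from 11.32 to 12.12 in PBS and from 10.90 to 12.10 in SP, with a difference of -0.18 (95% interval -0.82 to 0.46, adjusted p = 0.593). That interval leaves room for changes of either sign. Zfp36l2 also turned sign with centred arrays (0.10) and without SP replicate 3 (0.063), its lowest array. The log2 ratio of Zfp36 to Zfp36l1 rose from 1.07 ± 0.14 to 1.51 ± 0.14 (SD, n = 4 each, exact permutation p = 0.0286, adjusted 0.0571). The ratio of Zc3h12a to Zfp36 shifted from -3.49 ± 0.57 to -1.10 ± 0.07 (exact permutation p = 0.0286, adjusted 0.0571), and neither contrast passed the adjustment, at the smallest p that the design gives.

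The message-protecting Elavl1 and the decay factor Khsrp showed no called difference. Elavl1 lay between 10.40 and 10.58 in PBS and between 10.01 and 10.55 in SP (difference -0.11, 95% interval -0.39 to 0.18, adjusted p = 0.484 by limma). Khsrp lay between 8.83 and 8.98 in PBS and between 8.20 and 8.92 in SP (difference -0.25, 95% interval -0.60 to 0.11, adjusted p = 0.207). In both genes SP array 3 was the lowest array, and both turned positive with centred arrays (0.18 and 0.033). Elavl1 was also positive without SP replicate 3 (0.013). Over all rows, SP array 3 was the lowest SP array in 33.9%.

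The spread within the PBS group had a shape that several genes shared. PBS array 2 was the lowest PBS array for 5 of the 10 genes (Zfp36, Zfp36l2, Zc3h12a, N4bp1 and Elavl1) and for 36.3% of all rows. It also had the lowest neutrophil marker mean (12.18, against 12.48 to 12.69 on the other PBS arrays) and the highest endothelial marker mean (11.48, against 10.52 to 11.14). Zc3h12c went the other way, with its highest PBS value on array 2. With PBS array 2 and SP array 3 both left out, an alternative chosen after seeing the data, 5 genes were again called and 3 at least 2-fold.

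**Figure D3:**
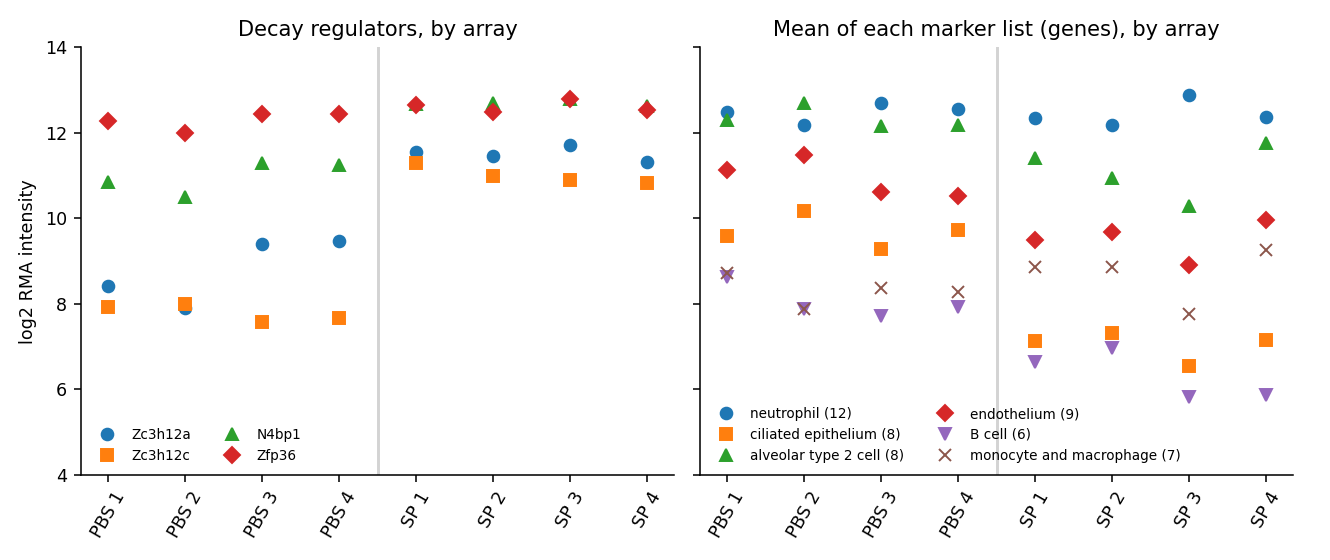
Log2 RMA intensity (y axis) on each of the 8 arrays (x axis) for Zc3h12a, Zc3h12c, N4bp1 and Zfp36 (left) and as the mean of 6 marker lists (right, number of genes in brackets). Zc3h12a and N4bp1 are lower on PBS arrays 1 and 2 than on PBS arrays 3 and 4, while ciliated, endothelial and B cell means are lower on every SP array than on every PBS array.

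Among all symbols, the rows most like Zc3h12a over the 8 arrays were those of Rybp, Rhbdf2 and the chemokine Ccl4, each with Pearson's r = 0.998. Ccl4 rose from a mean of 8.06 to 12.61, Rybp from 9.42 to 11.21 and Rhbdf2 from 10.07 to 11.52. Those most like Zfp36 were A530032D15Rik (r = 0.999), Il18rap (0.987) and Enam (0.986), with Enam near background at 4.50 and 4.76. These coefficients describe likeness over arrays that fall into a PBS and an SP cluster.

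Genes of the machinery that carries out decay were called in both directions, and for several lists the balance of the calls depended on the scaling. Of all rows, 44.1% were called, 21.5% higher and 22.6% lower, and the counts of each list below stand beside these shares. Of 16 matched genes of the CCR4-NOT list, 2 were called higher and 4 lower, none at least 2-fold. Besides the CCR4-NOT deadenylase and its adaptors, this list held Pan2, Pan3 and Parn of other deadenylases. Its median difference was -0.04 against 0.10 over all rows. Cnot8, a catalytic subunit gene, rose 1.56-fold (8.35 ± 0.23 to 8.99 ± 0.21, SD, n = 4 each, adjusted p = 0.00808 by limma). Pan2, of the other cytoplasmic deadenylase, rose 1.32-fold (adjusted p = 0.00774). Singled out after their values were seen, the catalytic subunit genes Cnot6 and Cnot6l fell 1.46-fold and 1.56-fold (adjusted p = 0.000992 and 0.00122 by limma). Cnot7, also catalytic, was not called (0.41). The poly(A) nuclease gene Parn fell 1.98-fold (7.83 ± 0.21 to 6.84 ± 0.32, adjusted p = 0.00232) and Cnot10, another subunit gene of CCR4-NOT, 1.71-fold (0.00457). Btg1 and Btg2, antiproliferative adaptors of the complex, were not called (differences 0.31 and -0.25, adjusted p = 0.0699 and 0.175). Btg1 was called higher with centred arrays (0.59, adjusted p = 0.00837) and without PBS replicate 3 (0.39, 0.034). Btg2 was called lower with array weights (-0.41, adjusted p = 0.0123), after another quantile normalization (-0.46, 0.00795), without PBS replicate 2 (-0.37, 0.0327) and with PBS array 2 and SP array 3 both left out (-0.43, 0.0117), but was 0.035 with centred arrays. The number called was 10 without SP replicate 3, in place of 6. With centred arrays 7 were called higher and 4 lower, with a median of 0.24. After another quantile normalization 3 were higher and 6 lower, with a median of -0.15.

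Of 16 genes of decapping and 5′ to 3′ decay, 7 were called higher, 3 lower and 6 not at all, with a median of 0.20. With centred arrays 10 were called higher and 1 lower, and after another quantile normalization 9 higher and 4 lower. Dcp2, the enzyme that removes the cap, was 8.18, 8.05, 8.26 and 8.10 in PBS and 9.85, 9.79, 10.09 and 9.72 in SP. Its groups were well apart, and it rose 3.29-fold (adjusted p = 1.01e-05 by limma). Patl1, a scaffold of the decapping complex, rose 2.45-fold and the exonuclease Xrn1, which digests decapped messages, 1.96-fold (adjusted p = 0.000108 and 0.000308). Dcp1b fell 1.96-fold (adjusted p = 0.00143). Dcps, which clears the freed cap, fell 1.56-fold (0.0239), a call lost with centred arrays (0.0766), by the methods' t-test (0.0511) and when PBS replicate 1, 2 or 4 was dropped (0.0502 to 0.0567). The helicase gene Ddx6 was not called (12.59 ± 0.17 and 12.50 ± 0.10, adjusted p = 0.464), and its difference of -0.09 was 0.19 with centred arrays but a called -0.29 after another quantile normalization (adjusted p = 0.00635).

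The RNA exosome, which degrades from the 3′ end, was measured next. Of 15 genes of the exosome and its SKI helper complex, 3 were called higher and 5 lower, with a median of -0.54. That balance turned with the scaling, to 4 higher and 1 lower with centred arrays and 4 of each after another quantile normalization. Exosc7, a core ring subunit, fell 5.46-fold from 9.16 ± 0.38 to 6.71 ± 0.39 (SD, n = 4 each, adjusted p = 0.000112 by limma). Its PBS values of 8.66, 9.58, 9.29 and 9.11 were all above its SP values of 6.73, 6.36, 6.51 and 7.25. Ring subunits Exosc6 and Exosc4 rose 2.13-fold and 1.51-fold (adjusted p = 0.000738 and 0.0102). The nuclease gene Exosc10 fell 1.45-fold (0.0197) and Dis3, another nuclease, 1.64-fold (0.0441), the latter a call lost without any 1 of the 4 PBS replicates or SP replicate 1 or 2 (0.0527 to 0.104), with centred arrays (0.0882), by the methods' t-test (0.0835) and after another quantile normalization (-0.33, 0.195). Dropping replicate 1 of either group or PBS array 2 ended the Exosc10 call (0.0508 to 0.0558), as did centring (0.0933). Skiv2l, the SKI helicase, lay at 9.73 and 9.78 (adjusted p = 0.653) and was called higher with centred arrays (0.33, 0.0341). The list had 5 calls when any of those 3 arrays was dropped, in place of 8. Ciliated and endothelial marker means were lower on all SP arrays too, and their part in these differences was not tested.

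Of the 10 UPF and SMG factors, which mark faulty messages for decay and of which the helicase Upf1 also works with regnase 1, 6 were called higher and 1 lower (median 0.38). Smg9 and Smg8, partners of the kinase Smg1, rose 2.35-fold and 2.16-fold (adjusted p = 0.00294 and 0.00129 by limma). Smg1 itself rose 1.57-fold (10.56 ± 0.06 to 11.21 ± 0.11, SD, n = 4 each, adjusted p = 0.000368 by limma). Upf3b fell 1.60-fold (0.0110), a call lost after another quantile normalization (0.0897). Of 11 other RNA-binding proteins of such elements, 1 was called higher and 3 lower, but 4 higher and 2 lower with centred arrays. Hnrnpd (AUF1) rose 1.22-fold (adjusted p = 0.0330), a narrow call lost under 9 alternatives listed with the settings below. Ybx1 fell 1.53-fold (0.00444), and Zc3h12b, another regnase relative, fell 1.71-fold to 4.90 ± 0.05, at about the level of the Y-linked genes (0.000826). Pum2 was not called (10.75 ± 0.11 and 10.98 ± 0.14, 0.0836), but passed with centred arrays (0.51, 0.006), with array weights (0.0196) and without SP replicate 4 (0.049).

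**Figure D4:**
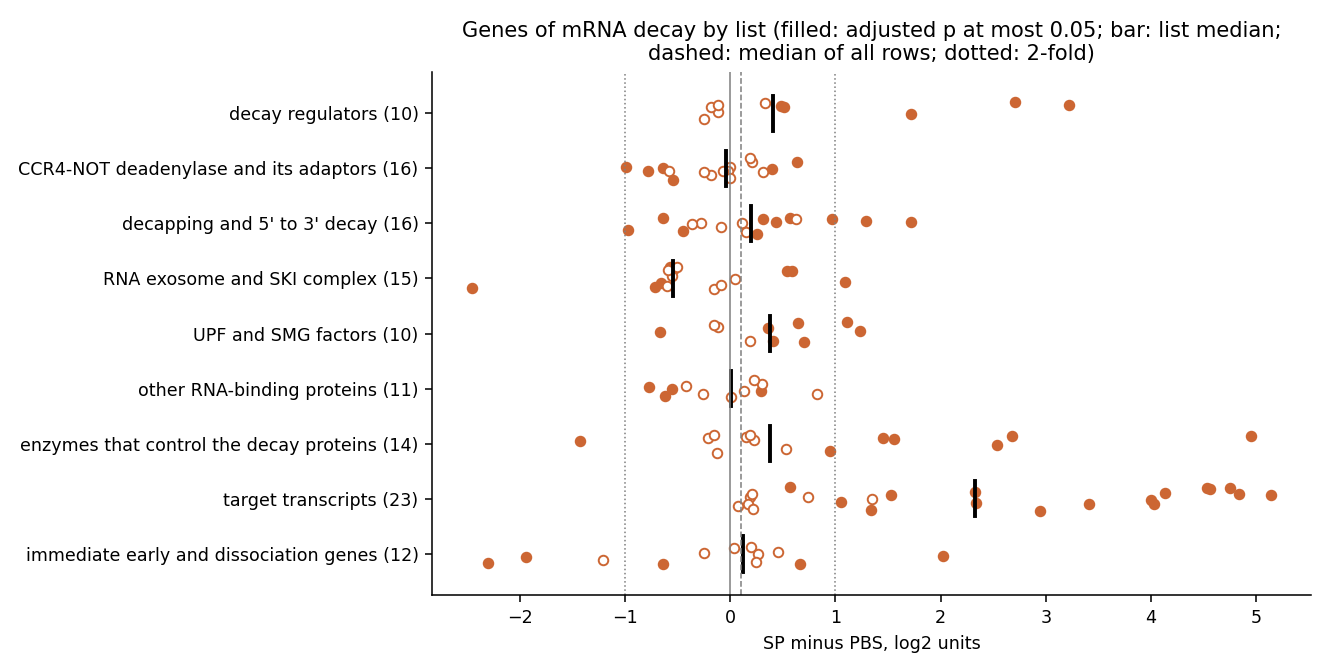
Difference between SP and PBS in log2 units (x axis) of each gene in 9 lists, the 10 decay regulators first, with the number of genes in brackets. Filled points passed an adjusted p of 0.05, open points did not, bars are list medians, the dashed line is the median of all rows and dotted lines mark 2-fold. The target transcripts reach furthest to the right, and the exosome list holds the largest fall among the lists of decay enzymes.

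Enzymes that control the decay proteins were also compared. Kinases of the p38 to MK2 route phosphorylate Zfp36 and hold it inactive, IKK-type kinases and the protease Malt1 act on regnase 1, and caspase 8 cuts N4bp1. Of 14 such genes, 6 were called higher and 1 lower, with 5 of them at least 2-fold higher. After another quantile normalization 6 were higher and 4 lower, and with centred arrays 9 higher and 1 lower. Ikbke, a kinase of the IKK family, rose 30.9-fold (adjusted p = 7.25e-08 by limma). Malt1 rose 6.40-fold (9.01 ± 0.20 to 11.68 ± 0.13, SD, n = 4 each, adjusted p = 3.71e-06 by limma). Mapk14, which encodes p38α, was the gene called lower, with PBS values of 11.03, 10.96, 11.52 and 11.51 and SP values of 9.75, 9.79, 9.72 and 10.06. It fell 2.69-fold (adjusted p = 0.000198). Singled out after their values were seen, the MK2 gene Mapkapk2 rose 2.74-fold, Casp8 2.96-fold and Tbk1 5.82-fold. Also singled out, Bcl10, Map2k3 and Map2k6 were not called (adjusted p = 0.533, 0.0535 and 0.118 by limma). The list held Ikbke and Tbk1 but not Chuk (IKKα) or Ikbkb (IKKβ), which the study reports as not induced. Dusp1, the phosphatase that turns p38 off, and Ywhaz, a 14-3-3 protein that binds phosphorylated Zfp36, were not called (differences 0.15 and -0.15, adjusted p = 0.190 and 0.156). Ywhaz was 0.13 with centred arrays but was called lower with array weights (-0.24, adjusted p = 0.0123), after another quantile normalization (-0.38, 0.00175) and with PBS array 2 and SP array 3 both left out (-0.24, 0.034). Dusp1 was called higher with centred arrays (0.43, 0.0119).

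Transcripts known as targets of these decay proteins rose together in most cases. Of 23 matched genes, 16 were called higher, 15 of them at least 2-fold, and none was called lower, with a median difference of 2.33 against 0.10 over all rows. With PBS array 2 and SP array 3 both left out, that median was 1.81. The list was drawn up with results of these data known, so its direction is not independent evidence. Il6, the best known target of regnase 1, was 5.23, 4.86, 5.31 and 5.82 in PBS and ran from 8.74 to 10.42 in SP, a rise of 17.5-fold (adjusted p = 6.68e-05 by limma). Tnf, the classic target of Zfp36, was 8.59, 7.41, 9.67 and 9.30 in PBS and 12.73, 12.72, 12.92 and 12.61 in SP, a rise of 16.0-fold (adjusted p = 0.000183 by limma). The groups of both genes were far apart.

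The other called targets ranged widely. Csf3 rose at least 28.4-fold, a lower bound because its PBS values of 4.30 to 4.63 were no higher than the Y-linked genes. Il6 and Il10 also fell in that range on PBS array 2, at 4.86. Il1a rose 35.3-fold, Cxcl10 26.8-fold, Ccl4 23.5-fold, Il10 23.2-fold, Ccl2 16.4-fold and Il23a 10.6-fold. Cxcl1 rose 7.69-fold, Ccl3 5.05-fold, the stress gene Ier3 5.03-fold, Csf2 2.89-fold, the NF-κB subunit gene Rel 2.54-fold and Tnfrsf4 (OX40) 2.08-fold. The call at 1.49-fold of Cxcl2 (adjusted p = 0.0360) did not hold by the methods' t-test (0.0682) or when PBS replicate 1 or any 1 SP array was dropped (0.0512 to 0.0752). Several targets high in both groups did not pass the test. Il1b lay at 13.02 ± 0.26 and 13.21 ± 0.06, Lcn2, also a neutrophil marker, at 13.32 ± 0.09 and 13.54 ± 0.09, and Ptgs2 at 12.29 ± 0.66 and 12.46 ± 0.05 (SD, n = 4 each, adjusted p = 0.242, 0.0505 and 0.616 by limma). By RT-qPCR in independent samples, however, the study found Il1b significantly higher in SP. Bright genes may be compressed on arrays, and the part of this in these differences was not tested. Nfkbiz and Nfkbid, regulators of NF-κB that regnase 1 and roquins target, had differences of 0.74 and 1.35 that were not called (0.0889 and 0.0598). Nfkbiz was called with the replicate number as a block (adjusted p = 0.0208) and with centred arrays (1.02, 0.0199), and Nfkbid under 6 alternatives, with differences of 0.77 to 1.66. Nor were Icos and Pim3 (0.207 and 0.492) called. Lcn2 passed by the methods' t-test (0.0346) and with array weights (0.0462), Icos with array weights (0.0366) and Pim3 after another quantile normalization (0.0109). With arrays centred, 22 of the 23 were called, all but Ptgs2.

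**Figure D5:**
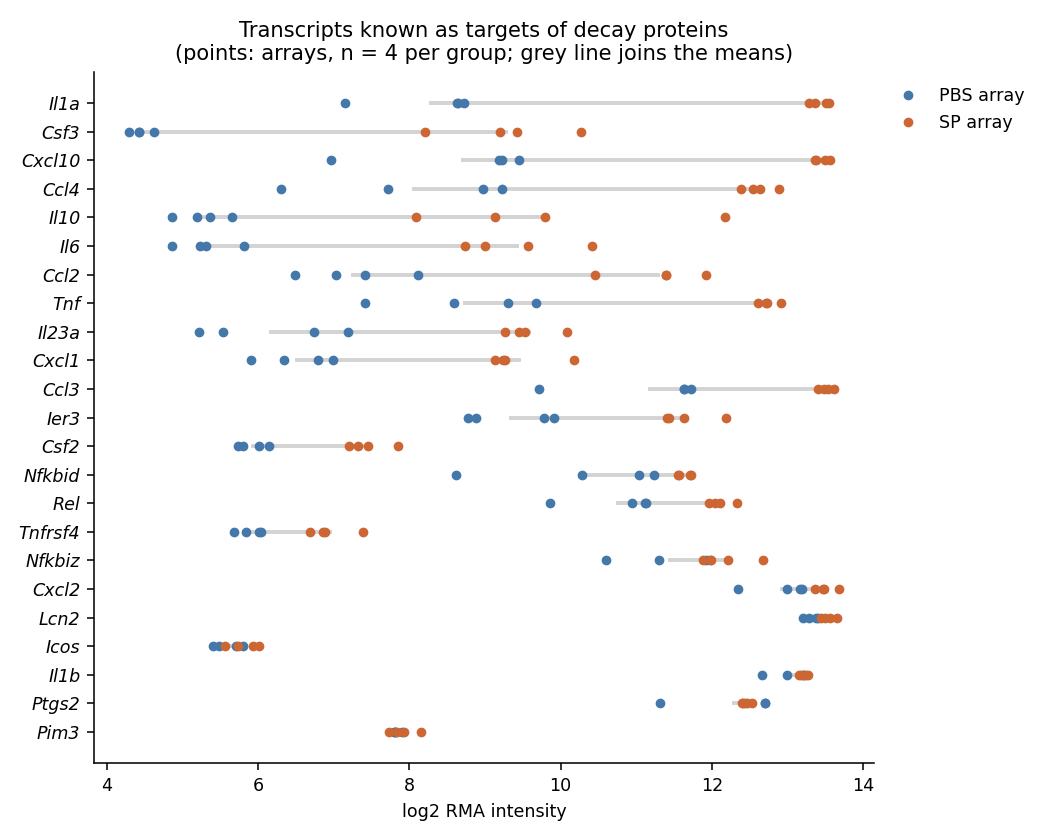
Log2 RMA intensity (x axis) of 23 transcripts known as targets of the decay proteins, on the 4 PBS arrays (blue) and the 4 SP arrays (orange), with a grey line joining the means. SP values lie to the right of PBS values for Tnf, Il6 and 16 other transcripts without overlap, and the 2 groups overlap for Pim3, Ptgs2, Il1b, Icos and, by the lowest SP array, Nfkbiz. Over all rows, the groups did not overlap in 49.0%, in either direction.

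PBS array 2 was the lowest PBS array for 21 of the 23 target transcripts, as it was for Zc3h12a and N4bp1. Without PBS replicate 2 the difference of Nfkbid was 0.79 in place of 1.35, and it passed the test (adjusted p = 0.0238). Digestion of lungs can itself set off immediate early genes, so 12 such genes were compared, and 2 were called higher and 3 lower. Of all rows, 21.5% were called higher and 22.6% lower. Egr2 rose 4.07-fold and Egr1 1.58-fold (adjusted p = 0.00145 and 0.00154 by limma). The heat shock genes Hspa1a and Hspa1b fell 4.93-fold and 3.85-fold (0.00575 and 0.00981), with a wide SP range of 8.79 to 11.38 for Hspa1a. Atf3 was not called (12.05 ± 0.10 and 12.31 ± 0.15, 0.0526), but passed with array weights (0.0169), with centred arrays (0.55, 0.00301), without SP replicate 3 (0.0178) and with PBS array 2 and SP array 3 both left out (0.0286). With centred arrays 4 of the 12 were called higher and 2 lower, and after another quantile normalization 2 higher and 5 lower. Both groups were digested, and the part of digestion in the level of any gene was not tested.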

How the data were processed

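Messenger RNA of 8 lung neutrophil samples, 4 PBS and 4 SP, was measured on Affymetrix Mouse Gene 1.1 ST arrays. The deposited values are log2 intensities. Per the study's methods, the authors applied RMA background correction, correction for GC content and sequence, quantile normalization and median polish, with probesets merged by gene or transcript identifier. The submitters' processing notes name Affymetrix Expression Console, RMA and Partek. Values are relative within an array, so a change in total RNA cannot be read from them, and bright genes may be compressed. Arrays have no read depth, so precision rests on how many arrays there were.

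Of 24625 rows, 19915 (80.9%) matched a symbol in the RefSeq table of GRCm38.p6, by unversioned accession. Where a symbol had several rows, the one with the highest mean was used. Groups and replicate numbers came from the sample titles. All rows were fitted with limma (version 3.58.1, R 4.3.3; lmFit and eBayes, two-sided, no covariate), adjusted by Benjamini-Hochberg over all rows, and called at an adjusted p of 0.05 and, separately, with a difference of at least 1 log2 unit. Contrasts within arrays used exact permutation tests (scipy 1.17.1). The fit was tested on simulated data with 200 changed rows of 24625, fewer than were called here. Limma recovered 68% of changes of 1 log2 unit and 95% of changes of 2, with 11 false calls. Smaller changes were not simulated.

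The members and lists were chosen with earlier results of these data known. Named genes were the 10 regulators, all target transcripts, of each other decay list the 2 largest called rises and falls and the 2 highest means, and the 3 rows most correlated with Zfp36 and with Zc3h12a; marker genes are given as lists. Of the genes this rule names, 1 is not reported here. Of the list genes, Cnot4, Tob2, Ythdf2 and Il12b had no matched row. Marker lists of 14 cell types were summarised by their mean per array. Alternatives were the methods' t-test, a robust prior with trend, a block for the replicate number, weights per array, centred arrays, another quantile normalization, dim rows left out, 1 row per symbol, each array left out in turn, limma treat and, added after seeing the data, PBS array 2 and SP array 3 both left out.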

Additional observations from a re-analysis of the deposited data

Results flagged for a closer look

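In 10 of 140 groups of 4 arrays, over 70 genes, 1 array stood far from the other 3 by Dixon's ratio, and chance alone flags about 1 group in 20. None of the 10 decay regulators was among them. PBS replicate 2 was the far array in 6 of the groups: it was lowest for Ccl3 (9.72, nearest other PBS array 11.63), Rel (9.86, nearest 10.94), Il1a (7.15, nearest 8.63), Cxcl10 (6.96, nearest 9.19) and Egr2 (6.90, nearest 8.22), and highest for Dcp1b (7.71, nearest 7.21). PBS replicate 3 was highest for Pim3 (7.91, nearest 7.81) and PBS replicate 1 lowest for Hspa1a (12.06, nearest 12.35). In SP, replicate 3 was lowest for Dcps (7.34, nearest 8.13) and replicate 4 highest for Cxcl1 (10.18, nearest 9.26).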

How the results depend on the processing

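Of the 10 decay regulators, 5 were called under every setting that left out 1 array (5 to 5) and 5 or 6 under the others, except limma treat against 1 log2 unit (3); the 3 calls of at least 2-fold were made under all settings run for them. Treat left 1572 rows called of all rows and centred arrays gave 18255, in place of 10860. Splits of at least 2-fold calls were 63.9% lower as deposited, 44.4% with centred arrays and 53.9% after another quantile normalization; centring added 0.28 to the median difference (0.38 in place of 0.10). List medians moved too: with centred arrays that of CCR4-NOT turned from -0.04 to 0.24, and after another quantile normalization that of the exosome list went from -0.54 to -0.23 and that of immediate early genes from 0.12 to -0.12. With PBS array 2 and SP array 3 both left out, the median of the target transcripts went from 2.33 to 1.81. List counts moved by over 1.5 times as follows. The CCR4-NOT list gave 11 with array weights, with centred arrays and with PBS array 2 and SP array 3 left out. It gave 6 to 10 with 1 array left out. The exosome list gave 5 with centred arrays (5 to 12 with 1 array left out), immediate early genes 8 with array weights and 8 with both arrays left out, and other RNA-binding proteins 2 with the robust prior, 7 with weights and 2 with dim rows left out (2 to 6 with 1 array left out, 2 when replicate 1 of either group or PBS array 4 was dropped). Signs turned, in no gene called as deposited, with centred arrays for Btg2 (0.035), Ddx6 (0.19), Elavl1 (0.18), Khsrp (0.033), Ywhaz (0.13), Zfp36l1 (0.17) and Zfp36l2 (0.10), without SP replicate 3 for Elavl1 (0.013, range -0.16 to 0.013 with 1 array left out) and Zfp36l2 (0.063, range -0.34 to 0.063), for Ptgs2 with array weights (-0.054), another quantile normalization (-0.043), without PBS replicate 2 (-0.15, range -0.15 to 0.32) and with both arrays left out (-0.14), and for Skiv2l with weights (-0.0022), another quantile normalization (-0.030) and both arrays left out (-0.018). The Hnrnpd call was lost with the robust prior, the replicate block, another quantile normalization, dim rows left out and without PBS replicate 1, 3 or 4 or SP replicate 1 or 2 (adjusted p 0.0584 to 0.114). Causes were not tested. The sample titles do not say whether replicate numbers pair the samples. Deviations of same-numbered arrays correlated at 0.0156, 0.0304, 0.35 and -0.274, and 1 of the 4 numbers, replicate 3, matched its own best. With so few arrays, these values cannot exclude a pairing. With the replicate number as a block, 9842 rows and 6 regulators were called, Zfp36 being added; of the target transcripts 17 were called, Nfkbiz being added, and the Hnrnpd call was lost. Each regulator had 1 row, so no other row could be chosen for it.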
